A study of Mus musculus with 2 samples.

Results

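Genes for 7 matrix metalloproteinases and 3 genes for tissue inhibitors of metalloproteinases were followed through single cells of the developing mouse molar. The 10 genes (Mmp2, Mmp3, Mmp9, Mmp11, Mmp13, Mmp14, Mmp16, Timp1, Timp2 and Timp3) were found by symbol, each in 1 row of the 34285 genes in both count tables. Mandibular first molars with the tissue around them were taken at PN15.5 from C57BL/6J mice and digested with Dispase and Collagenase I. Lipo-Clo mice had received clodronate liposomes, which deplete macrophages, at 40 μg/g from PN3.5 to PN12.5 (with further doses on PN6.5 and PN9.5), and Lipo-PBS mice had received vehicle liposomes on the same days. Each condition is 1 library, the number of mice in a library is not given in the sources used here, and no test between the conditions was possible. Values are therefore unique molecular identifiers (UMIs) scaled to a total of 1e+06 UMIs over the same cells (CPM), with 95% intervals (exact Poisson for a level, exact binomial for a ratio or a share) that cover counting error only and not the difference between mice.

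Metalloproteinases are zinc enzymes that cut the proteins of the extracellular matrix. The gelatinases Mmp2 and Mmp9 act on denatured collagen, the collagenase Mmp13 opens the collagen fibril, the stromelysin Mmp3 cuts proteoglycans and other proteases, and Mmp11 is a stromelysin-like enzyme made active inside the cell. Mmp14 and Mmp16 sit in the cell membrane, and Mmp14 together with Timp2 activates the Mmp2 precursor. Timp1, Timp2 and Timp3 bind the active enzymes, and Timp3 stays attached to the matrix. Around an erupting tooth, bone and follicle tissue are removed and periodontal ligament is built, so matrix turnover is high.

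The Lipo-Clo library had 9362 cells with 31053404 UMIs, the Lipo-PBS library 9653 with 30537834, and 30 cell barcodes occurred in both. After filters, 8254 and 8261 cells were left, of which 4083 and 3871 were dental mesenchyme, named with 13 other classes from marker genes that include no metalloproteinase or inhibitor. There were 127 macrophage-like cells in the Lipo-Clo library and 168 in the other. Mitochondrial genes took 0.370% of the UMIs in Lipo-Clo and 1.73% in Lipo-PBS, and an unnamed cluster with genes of several lineages had 41 cells from Lipo-Clo and 641 from Lipo-PBS. The part of these differences in the results was not tested.

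Mmp13 and Mmp3 lie on the same strand of mouse chromosome 9 (GRCm38, GENCODE M21), Mmp13 at 7272514 to 7283331 and Mmp3 at 7445822 to 7455975. They belong to a row of metalloproteinase genes that ends with Mmp7 at 7699585 and also holds Mmp10 at 7502352 to 7510240. The other members are on other chromosomes. The sequences just before the RefSeq starts of Mmp13 and Mmp3 are shown because these neighbours had the lowest ratios between the libraries among the 10 members. Capitals mark 7-letter matches to the AP-1 motif TGAGTCA or the RUNX motif AACCACA, or to their reverse complements TGACTCA and TGTGGTT. Both windows are on the plus strand of GRCm38.p6 and run 5′ to 3′, chr9:7272384-7272513 for Mmp13 and chr9:7445692-7445821 for Mmp3.
Mmp13: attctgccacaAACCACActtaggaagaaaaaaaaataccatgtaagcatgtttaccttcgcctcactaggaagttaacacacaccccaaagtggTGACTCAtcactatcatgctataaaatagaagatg
Mmp3: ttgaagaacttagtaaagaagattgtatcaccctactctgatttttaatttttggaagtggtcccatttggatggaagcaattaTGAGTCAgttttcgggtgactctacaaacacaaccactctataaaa
The AP-1 match begins at base -35 in Mmp13 and at base -46 in Mmp3, counted back from the start, and the RUNX match of Mmp13 begins at base -119. Among the 7 members with a RefSeq entry (not Mmp2, Mmp9 or Mmp16), the 5 others had neither match in the 250 bases before their start. Of 32851 such windows in the RefSeq table, 4.46% held the AP-1 letters and 4.40% the RUNX letters. A match is a description of letters and not a shown binding site.

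Dental mesenchyme was the main source of 9 of the 10 transcripts. It held 70.0% to 86.9% of their UMIs in Lipo-Clo and 59.0% to 79.5% in Lipo-PBS, while holding 49.7% and 49.3% of all UMIs. Mmp9 was spread over other classes, with 16.2% of its UMIs in mesenchyme in Lipo-Clo and 30.7% in Lipo-PBS. Osteoclast-like cells held 45.3% and 12.6%, neutrophil-like cells 23.1% and 14.6%, and unnamed clusters 198 of 1975 and 215 of 768 Mmp9 UMIs, so in Lipo-PBS mesenchyme held more Mmp9 UMIs than any other class. It was highest in osteoclast-like cells, at 2704 CPM (2530 to 2888) in 46 Lipo-Clo cells and 1944 CPM (1577 to 2372) in 8 Lipo-PBS cells. Neutrophil-like cells followed at 499 and 512 CPM, and the ratio between the libraries there was -0.04 on the log2 scale (-0.34 to 0.28). Over both libraries together, Mmp9 in mesenchyme was at 21.3 CPM.

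Timp3 also had sources outside mesenchyme. Over both libraries it was highest in glia at 645 CPM (599 to 694), then in perivascular cells at 490 and endothelium at 417, with intervals that did not overlap, and mesenchyme followed at 324.5. Timp2 in macrophage-like cells stood at 468 CPM in Lipo-Clo and 507 in Lipo-PBS, beside 874 and 1076 in mesenchyme. Timp1 did not separate mesenchyme from cycling cells, at 325.5 CPM (319 to 332) and 348.5 CPM (322 to 377). For Mmp3, the interval of mesenchyme (22.7 CPM) overlapped that of glia (13.3 CPM, from 15 UMIs).

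**Figure D1:**
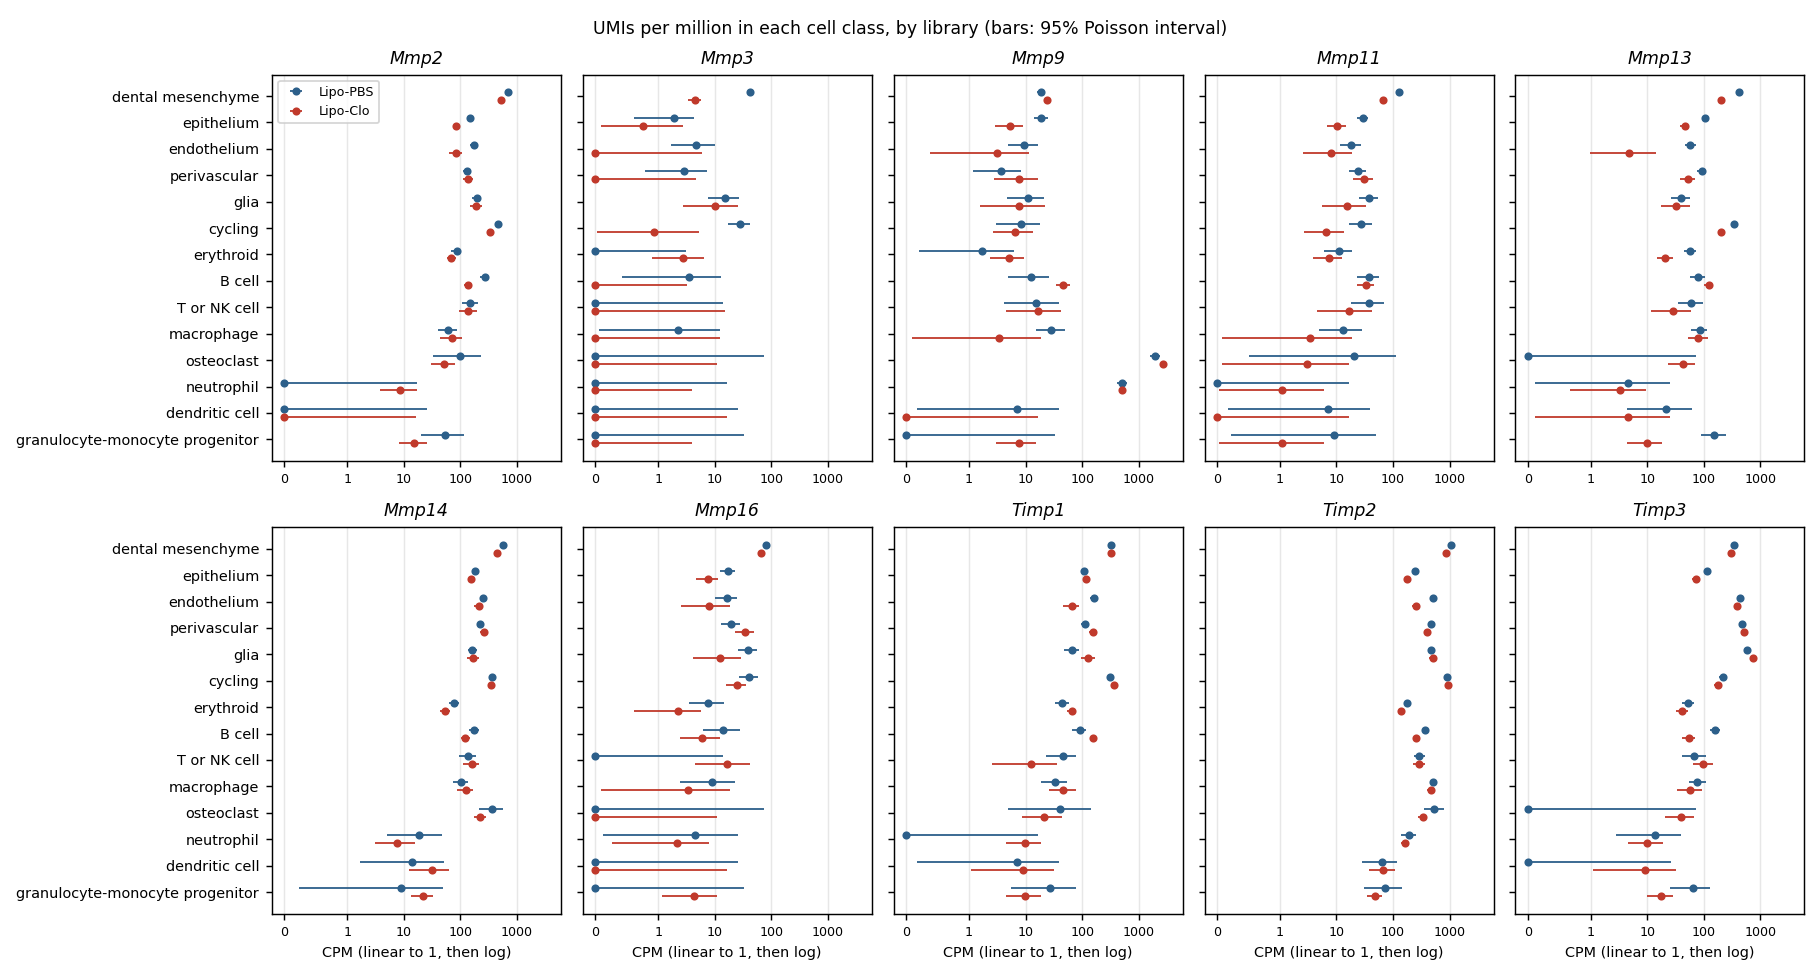
Level of each gene (horizontal axis, CPM, linear up to 1 and logarithmic above) in 14 named cell classes (vertical axis), for Lipo-PBS in blue and Lipo-Clo in red, with 95% Poisson intervals. Mmp9 stands highest in osteoclast-like cells at 2704 and 1944 CPM, whereas Mmp13 is highest in mesenchyme at 202 and 420 CPM.

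Erythroid cells should lack these transcripts, and their UMIs were taken as a guide to free RNA in the droplets. A Mmp13 UMI was found in 3.92% of the Lipo-Clo and 8.33% of the Lipo-PBS erythroid cells (median depth 3507 and 3081 UMIs), against 14.2% and 21.9% of mesenchymal cells (2785 and 2942 UMIs). With each cell thinned to 1000 UMIs, the shares were 2.72% and 3.39% in erythroid cells and 8.43% and 14.8% in mesenchyme. The Mmp13 level in erythroid cells was 20.7 CPM in Lipo-Clo and 57.5 in Lipo-PBS, for a log2 ratio of -1.47 (-2.09 to -0.87). Over both libraries erythroid cells ranked 11 of the 14 classes for Mmp13, at 35.3 CPM, and neutrophil-like cells were lowest at 3.53 CPM. The erythroid level is thus a guide and not a measured level of free RNA. Levels of Mmp13 near it were not told apart from background.

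The mesenchyme was divided into 10 states without use of any metalloproteinase or inhibitor gene. All but 1 had raised markers of a known state, and that one, led by Pcp4 and H19, stayed unnamed. The genes differed in where they were highest. Mmp2 was highest in both fibroblast-like states (Clec3b and Mfap5, or Col14a1 and Cd34), at 954 and 1091 CPM in Lipo-Clo and 804 and 980 in Lipo-PBS, and in Edil3 periodontal ligament-like cells at 962 and 956. It was lowest in the papilla- or pulp-like cells led by Ctnnd2, at 179 and 205.

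Mmp11 was concentrated in the dental follicle-like state, led by Dio2 and Moxd1. It reached 247 CPM there in Lipo-Clo and 891 in Lipo-PBS, and the next state over both libraries, the Edil3 periodontal ligament-like cells, had 104 and 85.7. Mmp14 was highest in follicle-like cells in Lipo-PBS (1171 CPM, against 686 in Lipo-Clo) and in the Edil3 state in Lipo-Clo (781 CPM, against 866 in Lipo-PBS), and over both libraries the intervals of these states overlapped. Mmp16 was highest in odontoblast-like cells, which make dentin, at 366 and 358 CPM. The log2 ratio of Mmp16 in these cells was 0.04 (-0.24 to 0.31).

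Mmp13 was highest in the unnamed Pcp4 state (761 CPM in Lipo-Clo and 1058 in Lipo-PBS) and in Edil3 periodontal ligament-like cells (853 and 870). When the mesenchyme was divided into 26 finer states, decided on after seeing the data, a group led by Pdzrn4, Sfrp2 and Ncam1 stood above the rest. Mmp13 there was 2358 CPM (2182 to 2545) in 100 Lipo-Clo cells and 2200 CPM (2077 to 2328) in 144 Lipo-PBS cells, with a UMI in 80.0% and 90.3% of cells. The highest Mmp13 level was thus found in both libraries. The level of the Edil3 state was not shared by all of its cells. Finer cells led by Abi3bp (90 and 276 cells) had Mmp13 at 65.9 and 85.8 CPM.

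Among the inhibitors, Timp1 was highest in Edil3 periodontal ligament-like cells (1329 CPM in Lipo-Clo, 608 in Lipo-PBS) and also high in osteoblast- or cementoblast-like cells (745 and 591). Timp2 was highest in Crispld2 periodontal ligament-like cells, at 1230 and 1784 CPM. Timp3 was highest in the Ctnnd2 papilla- or pulp-like cells, at 757 and 674 CPM, and in osteoblast- or cementoblast-like cells, at 621 and 700. Over both libraries it was lowest in odontoblast-like cells, at 24.4 and 69.3 CPM, beside 40.9 and 53.2 CPM in erythroid cells.

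**Figure D2:**
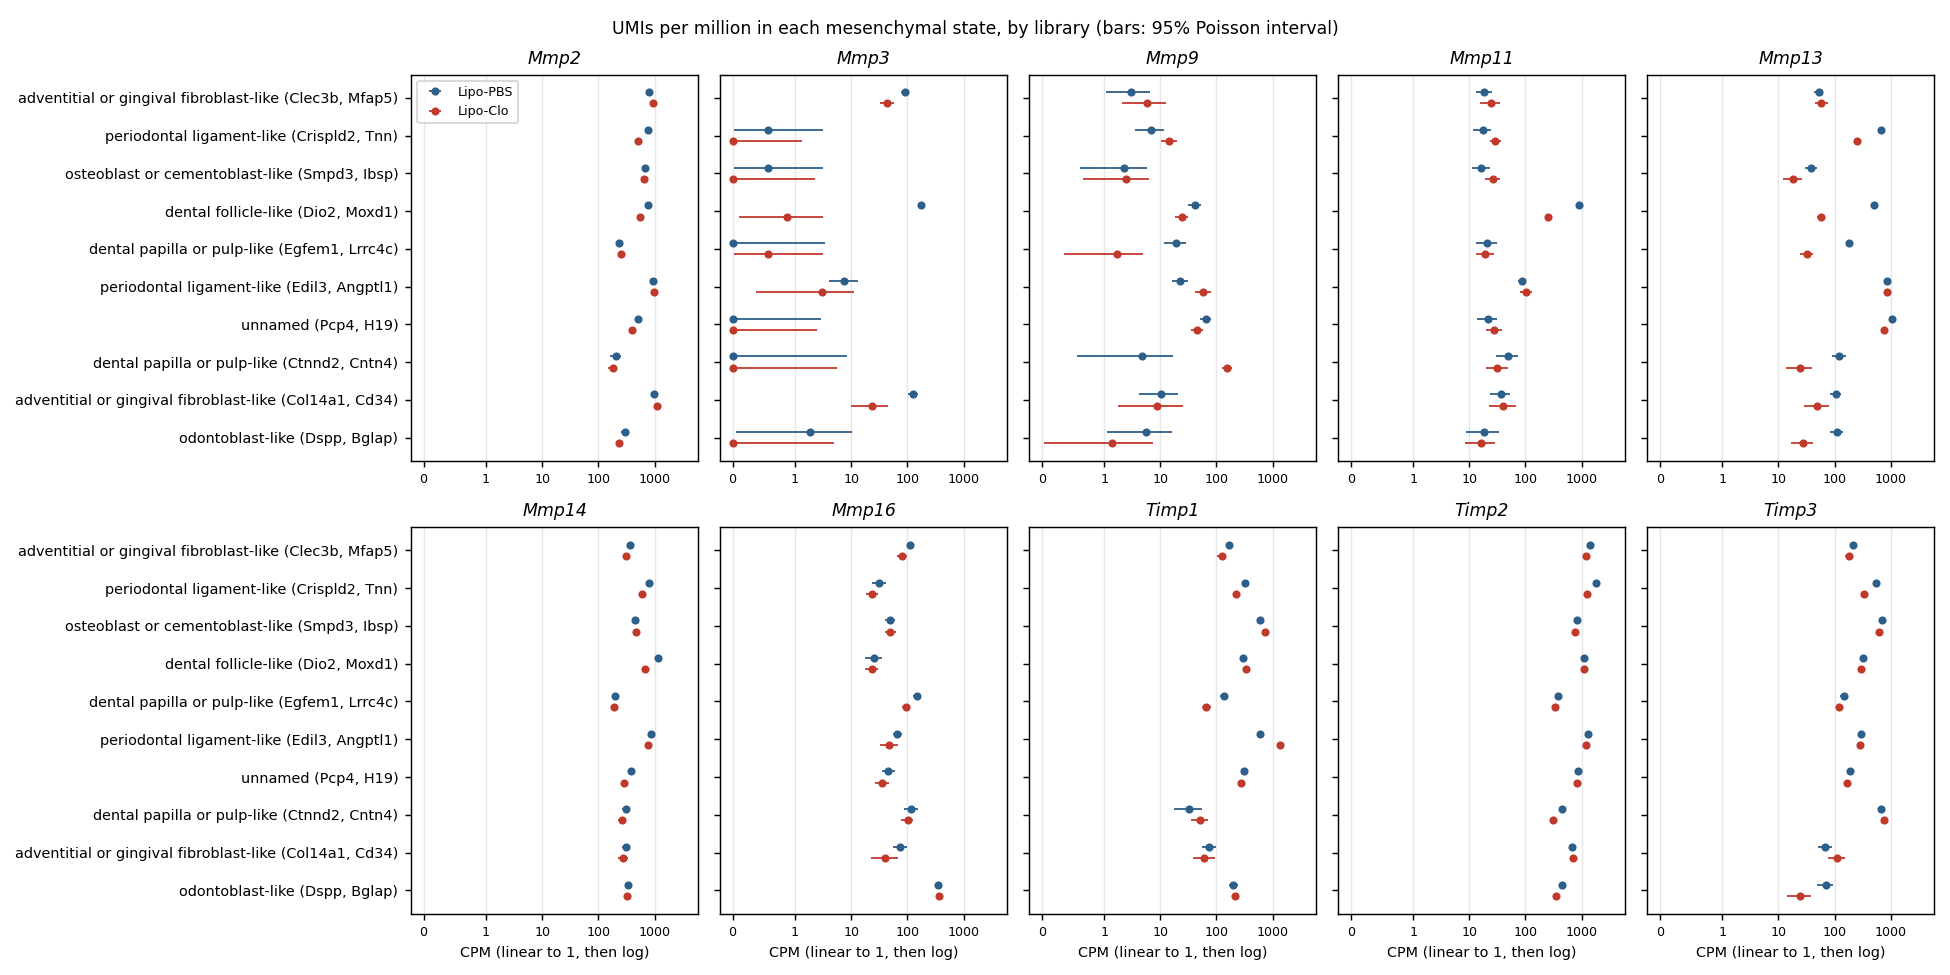
Level of each gene (horizontal axis, CPM, linear up to 1 and logarithmic above) in the 10 mesenchymal states (vertical axis, with 2 leading genes each), for Lipo-PBS in blue and Lipo-Clo in red, with 95% Poisson intervals. Mmp11 stands apart in the follicle-like state at 247 and 891 CPM, and Mmp16 in odontoblast-like cells at 366 and 358 CPM.

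Between the libraries, the secreted proteases Mmp3, Mmp13 and Mmp11 were lower in Lipo-Clo mesenchyme. Mmp13 stood at 202 CPM (195 to 210) in Lipo-Clo and 420 CPM (409 to 432) in Lipo-PBS, for a log2 ratio of -1.05 (-1.12 to -0.99). Mmp11 stood at 67.6 and 128 CPM, which is a log2 ratio of -0.92 (-1.04 to -0.80). Mmp3 stood at 4.42 CPM (59 UMIs) and 41.9 CPM (534 UMIs), which is a log2 ratio of -3.25 (-3.66 to -2.86), but a UMI of it was seen in only 0.955% and 3.59% of cells.

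The other members moved less. The log2 ratios were -0.39 for Mmp2, -0.35 for Mmp14, -0.30 for Mmp16, -0.30 for Timp2 and -0.20 for Timp3, each with an interval below 0. With the finer states given the same weights in both libraries, the ratio was -0.07 for Mmp2, -0.12 for Mmp14 and -0.15 for Timp2. For Timp3 it was -0.30 with these weights, and -0.01 as a mean over cells. Timp1 was at 324 CPM in Lipo-Clo and 327 in Lipo-PBS, for a log2 ratio of -0.01 (-0.08 to 0.05). Mmp9 was the only member with a higher level in Lipo-Clo, at 23.9 and 18.5 CPM, which is a log2 ratio of 0.37 (0.12 to 0.62).

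Of the 8 members with a UMI in at least 10% of mesenchymal cells (all but Mmp3 and Mmp9), 2 (Mmp11 and Mmp13) were at least 1.5-fold lower in Lipo-Clo and 0 were at least 1.5-fold higher. Of all 4405 genes that met the same condition, 193 (4.38%) were at least 1.5-fold lower and 31 (0.704%) at least 1.5-fold higher. The median log2 ratio was -0.32 over the 8 members and 0.00 over all 4405 genes, of which 50.3% were below 0. No count of this kind has a replicate check.

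**Figure D3:**
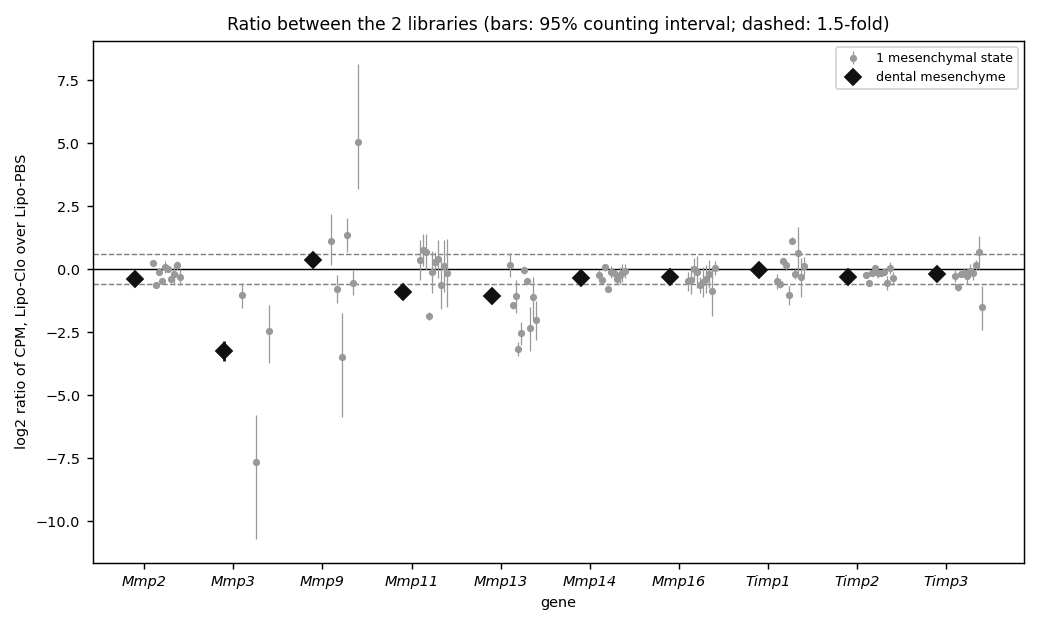
Log2 ratio of CPM, Lipo-Clo over Lipo-PBS (vertical axis), for each gene (horizontal axis), in all dental mesenchyme (black diamonds) and in each mesenchymal state with at least 20 UMIs of the gene (grey points), with 95% counting intervals and dashed lines at 1.5-fold. Mmp13 is at -1.05 in mesenchyme and Timp1 at -0.01, and the highest Mmp9 point, at 5.06, rests on 1 cell.

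The dental follicle-like state had the lowest ratios of Mmp3, Mmp11, Mmp13 and Mmp14 among the states. It was named from markers of the dental follicle, the tissue that surrounds the tooth germ and directs bone removal for eruption. It held 612 Lipo-Clo and 415 Lipo-PBS cells. Mmp13 was at 57.8 CPM in Lipo-Clo and 514 in Lipo-PBS, for a log2 ratio of -3.15 (-3.43 to -2.88), and 4.90% and 21.7% of its cells had a UMI. Mmp11 differed by -1.85 (-2.00 to -1.71), and 36.4% and 67.5% of cells had a UMI. Mmp14 differed by -0.77 (-0.87 to -0.67), whereas Timp2 differed by 0.03 (-0.06 to 0.12). Of the 7 members in use in this state, 3 were at least 1.5-fold lower and 0 higher, beside 12.6% and 7.16% of all 4679 genes in use there.

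Much of the follicle-like state was made of different cells in the 2 libraries. Cells led by Dio2, Il1rl1 and Grem1 were 14.9% of the state in Lipo-Clo (91 cells in all) and 60.7% in Lipo-PBS (253 cells). Within these finer cells, Mmp11 was at 819 CPM (721 to 926) and 1261 CPM (1186 to 1340), which is a log2 ratio of -0.62 (-0.83 to -0.42). Mmp13 was at 274 and 865 CPM, which is a log2 ratio of -1.66 (-2.00 to -1.33), with a UMI in 13.2% and 32.0% of cells. Mmp14 was at 1285 and 1533 CPM, which is a log2 ratio of -0.25 (-0.42 to -0.09). The differences in these cells were thus smaller than in the whole state, and each of these ratios still had an interval below 0. In the finer cells led by Moxd1, C1qtnf3 and Fbln7 (379 and 108 cells), Mmp11 was at 199 and 519 CPM, a ratio of -1.39 (-1.65 to -1.12). Mmp14 there was at -0.29 (-0.48 to -0.11), and Mmp13 at 1.01 (-0.23 to 2.52) from 46 and 6 UMIs. In the remaining finer cells, led by Moxd1, Bmp3 and Ibsp, the intervals of Mmp11, Mmp13 and Mmp14 all spanned 0.

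Mmp3 in the follicle-like state came from few cells. The state held 2 UMIs in 1 Lipo-Clo cell and 250 UMIs in 14 Lipo-PBS cells. Of the 13 Lipo-PBS cells with Mmp3 in the Dio2, Il1rl1 and Grem1 group, 11 also had a Mmp13 UMI and 8 a Mmp10 UMI. Mmp10, a second stromelysin and a chromosome 9 neighbour, was at 2 UMIs in Lipo-Clo and 218 in Lipo-PBS in this group, in 2 and 23 cells, and 22 of the 23 also had Mmp13. Across all cells, 2 from Lipo-Clo and 24 from Lipo-PBS had at least 5 Mmp3 UMIs, and the 24 held 65.6% of all Mmp3 UMIs of the library, with 10 of these cells in fibroblast-like states, 6 in the follicle-like state and 7 in unnamed clusters. In the Col14a1 fibroblast-like state Mmp3 was at 23.2 and 127 CPM, with a log2 ratio of -2.46 (-3.72 to -1.42), and in the Clec3b state at 44.1 and 90.4 CPM, a log2 ratio of -1.04 (-1.54 to -0.56).

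**Figure D4:**
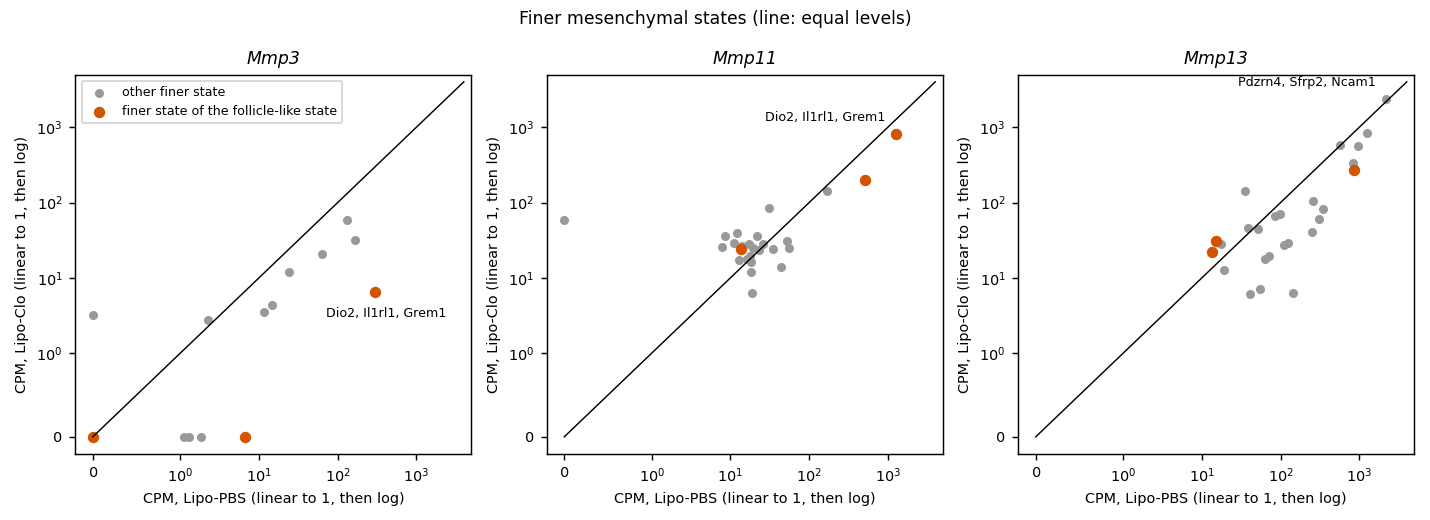
Level in Lipo-Clo (vertical axis) against Lipo-PBS (horizontal axis), in CPM, linear up to 1 and logarithmic above, of Mmp3, Mmp11 and Mmp13 in each of the 26 finer mesenchymal states, with those of the follicle-like state in orange and a line at equal levels. The group led by Dio2, Il1rl1 and Grem1 lies below the line for Mmp3 (6.52 and 301 CPM), and the group with the highest Mmp13 lies close to it (2358 and 2200 CPM).

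By state, the interval of the Mmp13 ratio was below 0 in 8 of the 10 states and above 0 in 0 of them. The 8 included osteoblast- or cementoblast-like cells, at 18.3 and 37.8 CPM, which is below the erythroid levels. They also included the Pcp4 state at -0.48, whose finer states were at 0.03 (-0.16 to 0.21) and 0.10 (-0.04 to 0.24). In Crispld2 periodontal ligament-like cells it was at 252 CPM in Lipo-Clo and 682 in Lipo-PBS, for a log2 ratio of -1.43 (-1.57 to -1.30). In the Edil3 periodontal ligament-like cells it was at 853 and 870 CPM, which is a log2 ratio of -0.03 (-0.17 to 0.11). Both ligament-like states were mixtures that differed between the libraries. In the Crispld2 state, cells led by Pappa2, Crispld2 and Thsd4 numbered 377 and 54, with a Mmp13 ratio of -1.30 (-1.54 to -1.06). Cells led by Myo16 and Tnn numbered 40 and 189, with a ratio of -0.76 (-1.09 to -0.44), and the remaining finer state was at 0.26 (-0.74 to 1.35). In the Edil3 state, cells led by Lgals3, Edil3 and Htra1 had Mmp13 at 839 and 1254 CPM, a ratio of -0.58 (-0.77 to -0.39). Those led by Abi3bp were at only 65.9 and 85.8 CPM, a ratio of -0.38 (-1.29 to 0.44). These groups had 301 and 15 Lipo-Clo Mmp13 UMIs, beside 559 in the whole Edil3 state. The level and ratio of that state thus also rest on cells outside them, whose finer states were not determined. Of the Pdzrn4 group, highest in Mmp13, 88.1% of cells lay in the Pcp4 state, and where the others lay was not determined. In the papilla- or pulp-like and odontoblast-like states it was at 24.0 to 31.8 CPM in Lipo-Clo and 109 to 184 in Lipo-PBS. The Lipo-Clo levels there were near the 20.7 CPM of erythroid cells, and the part of free RNA was not tested. The finer fibroblast-like cells differed in direction. Those led first by Clec3b had a Mmp13 ratio of -1.84 (-2.97 to -0.86), from 10 and 59 UMIs. Those led first by Tnxb were at 2.00 (1.31 to 2.71), from 48 and 30 UMIs. In the whole Clec3b state, the 61 Lipo-Clo Mmp13 UMIs lay in 12 cells. Finer cells led by Ccl19, mostly in the Col14a1 state, were at -0.20 (-1.18 to 0.75).

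The inhibitors did not move together. Timp1 was higher in Lipo-Clo in Edil3 periodontal ligament-like cells, with a log2 ratio of 1.13 (1.00 to 1.26), and lower in the Egfem1 papilla- or pulp-like cells, with -1.04 (-1.40 to -0.68). Within the Edil3 state it was at 1.16 (0.99 to 1.34) in cells led by Lgals3 and 0.20 (-0.27 to 0.66) in those led by Abi3bp. These groups had 512 and 53 Lipo-Clo Timp1 UMIs, beside 871 in the whole Edil3 state, whose ratio thus also rests on cells outside them. The highest Lipo-Clo mesenchymal cell held 147 Timp1 UMIs, and its state was not described. Within the Egfem1 state Timp1 was at -1.50 (-1.99 to -1.03) in finer cells led by Lrrc4c. The finer cells led by Cntn6, Egfem1 and H2ac24 were at 0.12, -0.31 and -0.22, each with an interval across 0. In the Pcp4 state Timp1 was at -0.19 (-0.39 to 0.02), and its finer cells led by Pcp4 were at -0.49 (-0.74 to -0.24). The finer cells led by Pdzrn4, 88.1% of them in that state, were at 0.83 (0.62 to 1.03), from 1296 and 731 CPM. Timp2 had an interval below 0 in 6 of 10 states and above 0 in 0, and the lowest ratios were -0.55 in the Ctnnd2 state and -0.54 in the Crispld2 state. Timp3 was lower in Crispld2 periodontal ligament-like cells, at 340 and 559 CPM, with a log2 ratio of -0.72 (-0.85 to -0.59). Within the finer cells of that state the ratios were smaller, from -0.55 to -0.46 for Timp3 and from -0.32 to -0.06 for Timp2. In the follicle-like state Timp3 was at -0.14 (-0.31 to 0.04) as a whole, but at -1.06, -0.84 and -0.83 in its 3 finer states, each with an interval below 0.

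Outside mesenchyme, endothelium had lower Timp2 in Lipo-Clo (260 and 503 CPM, which is a log2 ratio of -0.95, from -1.21 to -0.70) and lower Timp1 (65.4 and 161 CPM). The class joined a vascular cluster (372 Lipo-Clo and 377 Lipo-PBS cells) with one led by the lymphatic genes Ccl21a, Lyve1 and Prox1 (30 and 147 cells), and the part of this mixture was not tested. Timp3 in endothelium was at 387 and 432 CPM, with an interval from -0.38 to 0.06. In glia, Timp3 was at 749 and 589 CPM, which is a log2 ratio of 0.35 (0.13 to 0.56). Beside these values, erythroid cells had Timp2 at 141 and 179 CPM and Timp1 at 66.2 and 44.6 CPM. The Lipo-Clo level of Timp1 in endothelium was thus at that of erythroid cells. Of 8 classes other than dental mesenchyme with at least 20 Timp1 UMIs, cycling cells included, the interval of the ratio was below 0 only in endothelium. It was above 0 in 4, namely glia, B cells, erythroid and perivascular cells. For Mmp13 it was below 0 in 6 of 10 such classes, erythroid cells among them, and above 0 in 1. For Mmp11 it was below 0 in 3 of 7 and above 0 in 0. Cycling cells were among the classes below 0 for both genes. A Mmp2 UMI was in 69.6% of them, beside 69.9% of mesenchymal cells, so they were not set apart from dividing mesenchyme. Granulocyte-monocyte progenitors, also below 0 for Mmp13, had 9 and 17 UMIs of it, the latter from 14 cells. The part of free RNA in these ratios was not tested.

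Much of the Mmp9 in mesenchyme rested on few cells. The 10 highest cells held 48.9% of its mesenchymal UMIs in Lipo-Clo and 46.6% in Lipo-PBS. Mmp9 was more widely seen in the unnamed Pcp4 state, in 46 of 386 Lipo-Clo and 61 of 327 Lipo-PBS cells. Its level there was 44.9 and 64.9 CPM, from 66 and 83 UMIs. The finer Pdzrn4 group, highest in Mmp13, had Mmp9 at 156 and 141 CPM, from 44 and 77 UMIs. In the Ctnnd2 papilla- or pulp-like cells, 102 of the 103 Lipo-Clo UMIs lay in 1 cell, which also held 140 UMIs of the 6 osteoclast markers. Without the mesenchymal cells that had at least 10 such UMIs, mesenchyme had 206 Mmp9 UMIs in Lipo-Clo and 169 in Lipo-PBS. The log2 ratio was then 0.21, for which no interval is given, so it is not set apart from 0 here. There were 41 Lipo-Clo cells with at least 10 osteoclast marker UMIs, holding 1027 Mmp9 UMIs (3217 CPM), and 44 such Lipo-PBS cells, holding 265 (999 CPM). Of these, 7 and 37 lay outside the osteoclast-like subcluster. The cells outside had Mmp2 at 299 and 472 CPM, beside 51.4 and 100 CPM in the subcluster. Ctsk, which is 1 of the 6 markers, was seen in 51.2% of mesenchymal cells. The Lipo-Clo and Lipo-PBS sets are thus not shown to be the same kind of cell.

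Genes that act with the proteases were described in the same way. Of 26 activators, receptors and partner proteases in use, 2 were at least 1.5-fold lower in Lipo-Clo and 0 higher, beside 4.38% and 0.704% of all genes in use, with a median log2 ratio of -0.20. This is a difference of about 1 gene from that share. Among these was Serpine2, a secreted inhibitor of serine proteases, at 202 and 360 CPM with a log2 ratio of -0.83 (-0.90 to -0.76). Of 12 transcription factors with known sites in metalloproteinase promoters, 1 was lower and 0 higher, beside the same 4.38% and 0.704% of all genes in use. A count of 1 gene is too small to set apart from that share. The gene was Runx1, at 45.7 and 76.0 CPM with a log2 ratio of -0.73 (-0.88 to -0.59). Of the AP-1 subunits in use, Jun was at -0.41, Fos at -0.34, Fosb at -0.16, Junb at -0.14, Jund at -0.07 and Fosl2 at 0.29 (0.21 to 0.37). Runx2, the regulator of bone formation, was at -0.10.

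Of 17 other genes of the family, Timp4 included, 1 was in use in mesenchyme, Mmp23, at 179 and 168 CPM, and it was neither 1.5-fold lower nor higher. Mmp10 was below the use limit, at 2 UMIs in Lipo-Clo and 249 in Lipo-PBS. The neutrophil collagenase Mmp8 was highest in neutrophil-like cells (731 and 973 CPM), together with Mmp25 (37.1 and 41.1). The macrophage elastase Mmp12 was highest in dendritic-like cells (35.7 and 168 CPM, from 8 and 24 UMIs). Mmp20, the enamel protease of ameloblasts, was highest in epithelium at 149 CPM in Lipo-Clo and 44.7 in Lipo-PBS. Epithelium joined a cluster led by Amelx, Klk4 and Ambn (606 Lipo-Clo and 343 Lipo-PBS cells) with 1 led by Krt15, Lgals7 and Krt6a (180 and 384 cells). A smaller cluster (60 and 74 cells) was also part of it, and the part of this mixture was not tested. Mmp15 and Mmp28 (13 of 192 UMIs) were highest in glia, Mmp17 in perivascular cells, Mmp19 in T or NK cells (11 of 631 UMIs) and Mmp23 in cycling cells. The highest class of Mmp28 and of Mmp19 thus held few of its UMIs. Mesenchyme held 55 and 39 Mmp28 UMIs, and 220 and 253 Mmp19 UMIs.

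The genes most alike in pattern were sought over 23 classes and states, which share 2 libraries, and are given as a description. Mmp2 was closest to Mxra8 (Pearson r of log2(CPM + 1) 0.96), Scarf2 and Nbl1, and Mmp3 to C1qtnf2 (0.86), Dpt and Osr1. Mmp11 was closest to Rorb (0.90), Spon1 and Porcn, and Mmp13 to Pdzrn4 (0.90), Gpx3 and Slc1a3. Mmp14 was closest to Gm56768 (0.99), Slc39a13 and Desi2, and Mmp16 to Pcsk5 (0.95), Abat and Slit3. Mmp9 had lower values, with Txn1 (0.66), Rnf149 and Rnf8. Timp1 was closest to B3gnt9 (0.91), C1qtnf1 and C1qtnf6, Timp2 to Postn (0.91), Plekhf1 and Col3a1, and Timp3 to Syn3 (0.93), Tead1 and Akap11. Syn3 overlaps Timp3 on the opposite strand, as Syn1 overlaps Timp1 and Chchd10 overlaps Mmp11, and Cep295nl overlaps Timp2 on the same strand. Whether the counting used strand is not given in the sources used here, so reads of these pairs may not be told apart.

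The mesenchyme ratios were recomputed under 16 other ways of processing. Mmp3, Mmp11 and Mmp13 stayed below 0 under all 16, and so did Mmp2, Mmp14, Mmp16, Timp2 and Timp3. When the finer states were given the same weights in Lipo-Clo and Lipo-PBS, Mmp11 was at -0.55, no longer 1.5-fold lower, and Mmp13 at -0.61.

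**Figure D5:**
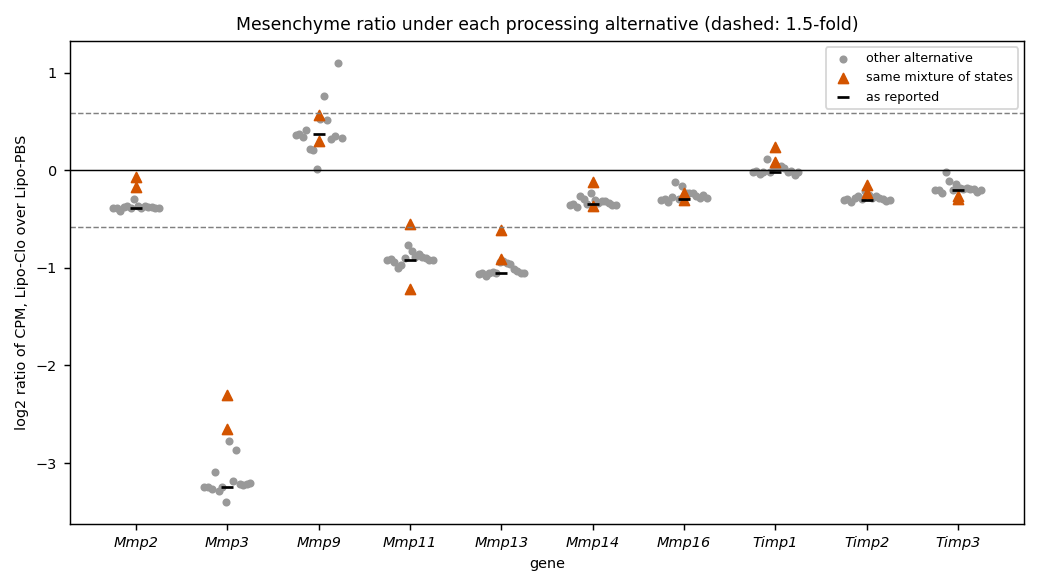
Log2 ratio of CPM in dental mesenchyme, Lipo-Clo over Lipo-PBS (vertical axis), for each gene (horizontal axis), as reported (black bar), with states or finer states given the same weights in the libraries (orange triangles) and under 14 other alternatives (grey points), with dashed lines at 1.5-fold. Every gene but Mmp9 and Timp1 lies below 0 throughout. Mmp11 moves from -0.92 to -1.22 with the same weights of states and to -0.55 with those of finer states.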

How the data were processed

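The deposited values are raw UMI counts, which the authors made with Cell Ranger 8.0.0 per the file headers. The submitters' processing notes name Cell Ranger 3.1.0 and Seurat 3.1.1 with GRCm39 (mm39), so the version behind the tables is not settled. Coordinates and sequences come from GENCODE M21 and RefSeq on GRCm38. Depth was 31053404 UMIs (Lipo-Clo) and 30537834 (Lipo-PBS), with medians of 2666.5 and 2722 per cell.

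Cells below 200 genes, or above 20% of UMIs from mitochondrial genes, were dropped. Scrublet's own threshold called 0 and 1 doublets, so the highest scores, 0.8% per 1000 cells, were removed (632 and 633 cells). Counts were scaled to 10000 per cell, and 2000 variable genes without any Mmp or Timp gene, 30 components and 20 neighbours gave Leiden clusters at resolution 1 (scanpy 1.11.5, leidenalg 0.10.2). Clusters took a class with at least 3 markers that were 2-fold above the median cluster and in 10% of cells. Myeloid cells were clustered again after the data had been seen. Mesenchyme was clustered again at resolution 0.6, and at 2 for finer states.

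UMIs were summed per library and class. A ratio is Lipo-Clo over Lipo-PBS, counted past 1.5-fold among genes seen in 10% or more of mesenchymal cells. The 10 members were always named. Of each gene list, those past the limit were named, except 1 that is not reported here, and per member the 3 genes most alike among those with at least 500 UMIs. The AP-1 subunits, Runx2 and the finer states were chosen for naming after their values were seen. The members and lists were chosen with earlier results of these data known. The fold rule and its interval were tested on simulated Poisson sums. These leave out the clumping of UMIs in single cells, so the test says nothing about that. Alternatives used edgeR 4.0.16 and DESeq2 1.42.0 scaling factors on the deposited counts, with no test.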

Additional observations from a re-analysis of the deposited data

Results flagged for a closer look

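Mmp2, Mmp9, Mmp11, Timp1 and Timp3 had ratios (log2, Lipo-Clo over Lipo-PBS) with counting intervals clear of 0 in opposite directions in 2 mesenchymal states. The difference was not tested for any of them, since each state is 1 library a condition. Mmp2 was at 0.25 (0.13 to 0.36) in Clec3b fibroblast-like cells and -0.61 (-0.72 to -0.50) in Crispld2 periodontal ligament-like cells. Within the finer cells of the Crispld2 state Mmp2 was at -0.16, -0.38 and -0.17, and only -0.38 had an interval below 0. Mmp9 was at 5.06 (3.17 to 8.12) in Ctnnd2 papilla- or pulp-like cells, where 1 Lipo-Clo cell held 102 of 103 UMIs. It was at -3.49 (-5.88 to -1.75) in Egfem1 papilla- or pulp-like cells, from 3 and 21 UMIs. Mmp11 was at 0.75 (0.13 to 1.39) in the Crispld2 state, where levels were low at 29.2 and 17.4 CPM (80 and 31 UMIs), and -1.85 (-2.00 to -1.71) in follicle-like cells. Timp1 was at 1.13 (1.00 to 1.26) in Edil3 periodontal ligament-like cells and -1.04 (-1.40 to -0.68) in the Egfem1 state, and in neither state did all finer cells share the difference. Timp3 was at 0.68 (0.02 to 1.32) in Col14a1 fibroblast-like cells and -1.51 (-2.40 to -0.66) in odontoblast-like cells, where the 24.4 and 69.3 CPM lay around the erythroid levels of 40.9 and 53.2.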

How the results depend on the processing

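No paired analysis was possible because there is a single library for Lipo-Clo and a single one for Lipo-PBS. The count of members at least 1.5-fold lower in mesenchyme (2 of 8) was 1 with the finer states given the same weights, 4 at a log2 limit of 0.32 and 1 at a 2-fold limit. The count of all genes lower (193 of 4405) was 127 with the same states, 74 with the same finer states, 1390 of 15074 with genes of at least 20 UMIs, 731 at the 0.32 limit and 38 at 2-fold. The count of all genes higher (31) was 60 with cells thinned to 1000 UMIs, 20 with the same states, 8 with the same finer states, 838 with genes of at least 20 UMIs, 632 at the 0.32 limit and 5 at 2-fold. The 20-UMI and fold-limit counts moved by construction, and the cause of the others was not tested. Mmp13 ranged from -1.08 to -0.61 on the log2 scale, Mmp11 from -1.22 to -0.55, Mmp3 from -3.40 to -2.30 and Mmp9 from 0.01 to 1.10. Timp1 was below 0 under 9 of 16 alternatives. The finer states, the mesenchyme without osteoclast-marker cells and the unnamed cluster counted as mesenchyme were chosen after seeing the data. Depth limits Mmp3, with 59 UMIs in Lipo-Clo mesenchyme.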
